A study of Homo sapiens with 4 samples.

Results

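The clustered protocadherin genes, 53 protein-coding genes in a row on human chromosome 5, were examined for γH2AX, the form of histone H2A.X phosphorylated near broken DNA. They were taken from an NCBI RefSeq gene table (GRCh38.p14) as every protein-coding gene of chromosome 5 whose symbol is PCDHA, PCDHB or PCDHG followed by a letter or number, and they are 53 of 19974 protein-coding genes on chromosomes 1 to 22 and X. The alpha cluster has 15 members, the beta cluster 16 and the gamma cluster 22. The mark was mapped by chromatin immunoprecipitation and sequencing in SK-UT1, a uterine leiomyosarcoma cell line derived from smooth muscle cancer. Cells received OTS186935 at 1 µM, which inhibits SUV39H2 (an enzyme that methylates lysine 9 of histone H3), doxorubicin at 0.5 µM, which traps topoisomerase II on DNA, OTS186935 and doxorubicin together at the same doses (the combination), or 0.1% DMSO as the vehicle. Each condition was represented by 1 library of 1 cell line, so conditions are compared by value only and carry no test; the study's title speaks of a PARP inhibitor, which none of these libraries received. Peak lists hold no expression, so the identity of the cell line was not checked against markers.

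Clustered protocadherins are cell surface adhesion proteins best known in neurons, where each cell displays its own combination of them and like combinations repel, so that the branches of a neuron avoid each other. Each alpha and gamma gene has its own promoter and a long first exon, the variable exon, which encodes the extracellular cadherin repeats and the membrane span. These exons are spliced to constant exons shared by the cluster, so the alpha genes overlap and end together, as do the gamma genes, whereas the beta genes have no shared constant exons. Promoters are chosen with the help of the insulator protein CTCF and cohesin, most hold a conserved element with a CGCT core, and unchosen promoters are held silent by DNA methylation and H3K9 methylation. The last genes of the alpha and gamma clusters, called C-type (PCDHAC1, PCDHAC2, PCDHGC3, PCDHGC4 and PCDHGC5), are expressed more evenly between cells than the others.

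The deposited lists give 1 row per peak summit. Over chromosomes 1 to 22 and X there were 61928 rows with OTS186935, 48522 with doxorubicin, 29561 with the combination and 76780 with DMSO. The libraries were shallow: summits in the clusters rested on 3 to 14 fragments with OTS186935 (median 7), 4 to 12 with doxorubicin (median 7), 4 to 13 with the combination (median 7) and 3 to 22 with DMSO (median 9), as solved from the deposited fold and p-value. The commonest genome-wide background was 0.397, 0.389, 0.428 and 0.454 fragments per position in the same order. Intervals below are exact 95% intervals and cover counting error only. Neighbouring variable exons resemble each other, which makes the placing of short reads among them uncertain.

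The protocadherin clusters were dense in γH2AX peaks in every library. The joined gene extents plus 1 kb on each side held 43 rows with OTS186935, 35 with doxorubicin, 27 with the combination and 53 with DMSO. That came to 85.0 rows per Mb with OTS186935 (interval 61.5 to 114), 69.2 with doxorubicin (48.2 to 96.2), 53.3 with the combination (35.2 to 77.6) and 105 with DMSO (78.4 to 137). Over all protein-coding genes plus 1 kb the densities were 28.2, 21.8, 13.1 and 35.7 rows per Mb, so the clusters had 3.02, 3.17, 4.09 and 2.93 times the density of genes at large. Chromosome 5 as a whole was sparser, with 17.6, 14.5, 8.44 and 21.8 rows per Mb. The rows were of ordinary strength: their median fold over local background, the authors' value for each peak, was 4.38 with OTS186935, 4.38 with doxorubicin, 4.14 with the combination and 4.76 with DMSO, against 4.3, 4.09, 4.2 and 4.22 over all rows. Local background beneath the cluster rows had a median of 0.907, 0.695, 0.933 and 1.16 fragments, above the 0.68, 0.651, 0.756 and 0.762 of all rows, and its part in the density was not tested.

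The 3 clusters did not follow the same order across the libraries. The alpha cluster (hg38 chr5:140785140-141013347, 228 kb) held 15 rows with OTS186935, 20 with doxorubicin, 13 with the combination and 19 with DMSO. Doxorubicin thus had 105% of the DMSO number in alpha, where the whole genome had 63.2%, and the combination had 68.4% where the genome had 38.5%. The beta cluster (93.4 kb in 10 stretches of chr5:141050374-141250365) held 5 rows with OTS186935, 3 with doxorubicin, 1 with the combination and 9 with DMSO, and with the combination its density of 10.7 rows per Mb (interval 0.271 to 59.6) was 0.82 times that of all genes. With OTS186935 beta had 53.5 rows per Mb (17.4 to 125) and with doxorubicin 32.1 (6.62 to 93.8). The intervals of these treated libraries include the densities of all genes (28.2, 21.8 and 13.1). With DMSO beta had 96.3 (44.0 to 183), above the 35.7 of all genes. The gamma cluster (chr5:141329514-141513975, 184 kb) held 23 rows with OTS186935, 12 with doxorubicin, 13 with the combination and 25 with DMSO, and with 125, 65.1, 70.5 and 136 rows per Mb it was the densest of the clusters in each library but doxorubicin, where alpha had 87.6. The counting intervals of treated and DMSO libraries overlap within every cluster. With all lists cut to 29561 rows by p-value, alpha held 6, 14, 13 and 10 rows, beta 2, 3, 1 and 1, and gamma 15, 8, 13 and 15, so with lists of equal length alpha was higher with the combination than with DMSO, and beta no longer had its most rows in DMSO.

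**Figure D1:**
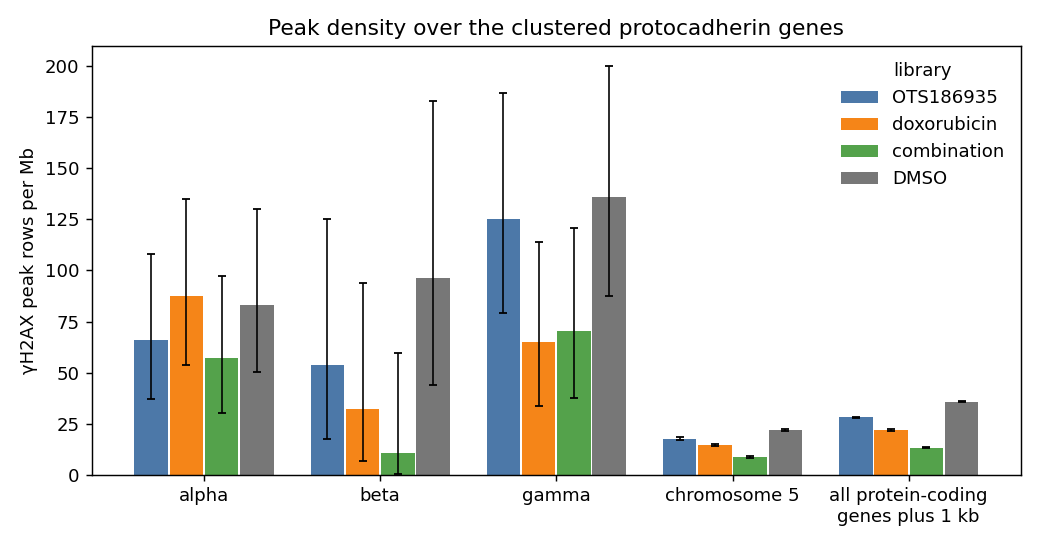
γH2AX peak rows per Mb (vertical axis) over the alpha, beta and gamma clusters, over chromosome 5 and over all protein-coding genes plus 1 kb, for the 4 libraries; whiskers are exact Poisson 95% intervals. The alpha bar for doxorubicin (87.6) stands level with that for DMSO (83.3), and the beta bar for the combination (10.7) is the lowest of the cluster bars.

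Many summits lay downstream of the start of a member and not at it. A row within 1 kb of a member's own start, where its promoter lies, was found at 12 of 53 members with OTS186935, 13 with doxorubicin, 7 with the combination and 11 with DMSO. Of 15819 protein-coding genes with a known strand, the same was true of 20.9% with OTS186935, 15.4% with doxorubicin, 10.8% with the combination and 30.2% with DMSO, against 22.6%, 24.5%, 13.2% and 20.8% of members. A summit between the start and 3 kb downstream, a window chosen after the summits had been seen, was found at 31 of 53 members with OTS186935 (22.2% of all genes), 26 with doxorubicin (16.3%), 19 with the combination (11.2%) and 34 with DMSO (30.6%). As shares these were 58.5%, 49.1%, 35.8% and 64.2% of members. Such a summit was found in no library at 8 members and in all 4 at 9 members, where 58.7% and 4.78% of other genes fell in these classes. Counting any row within 2.5 kb either side of the start gave 32 members with OTS186935 (30.7% of all genes), 27 with doxorubicin (22.8%), 21 with the combination (15.9%) and 37 with DMSO (41.2%). Member starts lie as little as 3374 bp apart, so these wide windows can overlap and the same row can count for neighbouring members. What this adds to the member counts was not tested.

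Many of these summits lay at a like distance from the start, near 2 kb. Between 1.5 and 2.5 kb downstream of the start lay 20 of 34 summits of the first 3 kb with OTS186935 (58.8%, interval 40.7 to 75.4), 15 of 29 with doxorubicin (51.7%, 32.5 to 70.6), 11 of 20 with the combination (55.0%, 31.5 to 76.9) and 26 of 42 with DMSO (61.9%, 45.6 to 76.4). At other protein-coding genes that band held 19.3%, 19.6%, 18.9% and 16.6% of the summits of the first 3 kb, and the bin just after the start was the fullest. In the 0.5 kb bin that begins 2 kb downstream, members had 22.6 summits per 100 genes with OTS186935, 22.6 with doxorubicin, 15.1 with the combination and 39.6 with DMSO, against 2.13, 1.52, 0.92 and 2.65 at other genes. The band was chosen on these summits and is a description. The gene table gives no exons, so whether the band falls inside the variable exon was not determined.

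**Figure D2:**
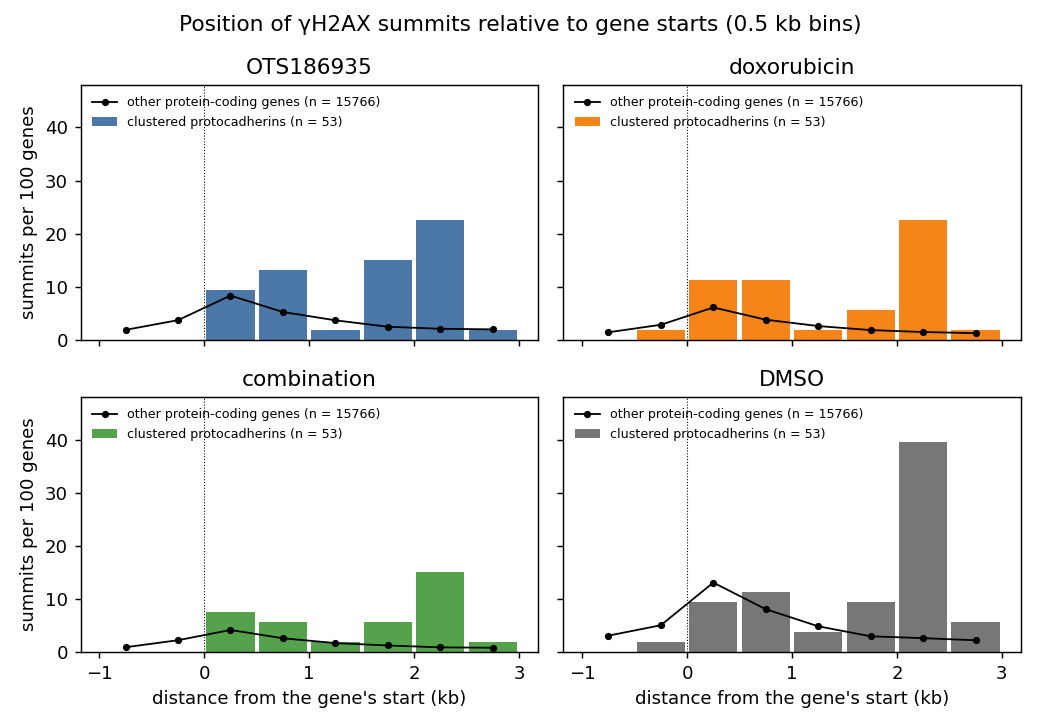
γH2AX summits per 100 genes (vertical axis) by distance from the gene's start in 0.5 kb bins, with 1 panel per library; bars are the 53 clustered protocadherins and the black line 15766 other protein-coding genes. The bars peak in the bin that begins 2 kb downstream (22.6, 22.6, 15.1 and 39.6 with OTS186935, doxorubicin, the combination and DMSO), where the line is at 2.65 or less.

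PCDHA1 to PCDHA13, the alternate alpha genes, held more summits between 1.5 and 2.5 kb than any other group of members in each library. The numbers were 8 with OTS186935, 12 with doxorubicin, 7 with the combination and 13 with DMSO. By share the gamma B genes, described below, were higher, with all their summits of the first 3 kb there. Of the 13 alternate alpha genes, 9 had a summit in the first 3 kb with OTS186935, 12 with doxorubicin, 9 with the combination and 12 with DMSO, at a median distance of 2060, 2080, 2070 and 2120 bp. Regions called in every library lay near 2 kb at PCDHA1, PCDHA2, PCDHA10, PCDHA11, PCDHA12 and PCDHA13. PCDHA1 (region chr5:140787968-140788603) had a fold of 3.77 with OTS186935, 3.11 with doxorubicin, 5.6 with the combination, the alpha row of highest −log10 q there (4.27), and 5.81 with DMSO, on 6, 4, 9 and 10 fragments. PCDHA12 (chr5:140876597-140877771) had a fold of 5.05 with OTS186935, 5.31 with doxorubicin, 4.14 with the combination and 3.11 with DMSO, so at this gene DMSO had the lowest value. PCDHA13 (chr5:140883906-140884605) had a fold of 7.01 with OTS186935, the row of highest −log10 q in the alpha cluster of that library (6.99), 4.17 with doxorubicin, 3.08 with the combination and 4.44 with DMSO. PCDHA2, PCDHA10 and PCDHA11 had folds of 3.39 to 4.89. Fold over local background ranks peaks within a list and is no measure of the amount of γH2AX between lists.

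The remaining alternate alpha genes had the downstream summit in some libraries. PCDHA6, PCDHA8 and PCDHA9 had it with doxorubicin and DMSO, with folds of 6.17 and 4.58 at PCDHA6, 4.32 and 4.89 at PCDHA8, and 6.4 and 5.44 at PCDHA9. PCDHA7 had it with doxorubicin (4.48), the combination (3.76) and DMSO (5.13), and PCDHA5 with OTS186935 (3.5), doxorubicin (3.77) and DMSO (4.44). PCDHA3 had it with OTS186935 (6.56) and DMSO (5.59) and no row there with doxorubicin or the combination. PCDHA4 had a single row, with doxorubicin (4.07), 2057 bp from its start. Rows near the start itself were scattered: PCDHA1 had one with doxorubicin (3.63) and the combination (3.65), PCDHA2 with doxorubicin (3.44) and DMSO (4.23), PCDHA13 with DMSO (5.02), PCDHA8 (3.99) and PCDHA11 (5.16) with OTS186935, and PCDHA3 (2.99) and PCDHA9 (4.65) with the combination.

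**Figure D3:**
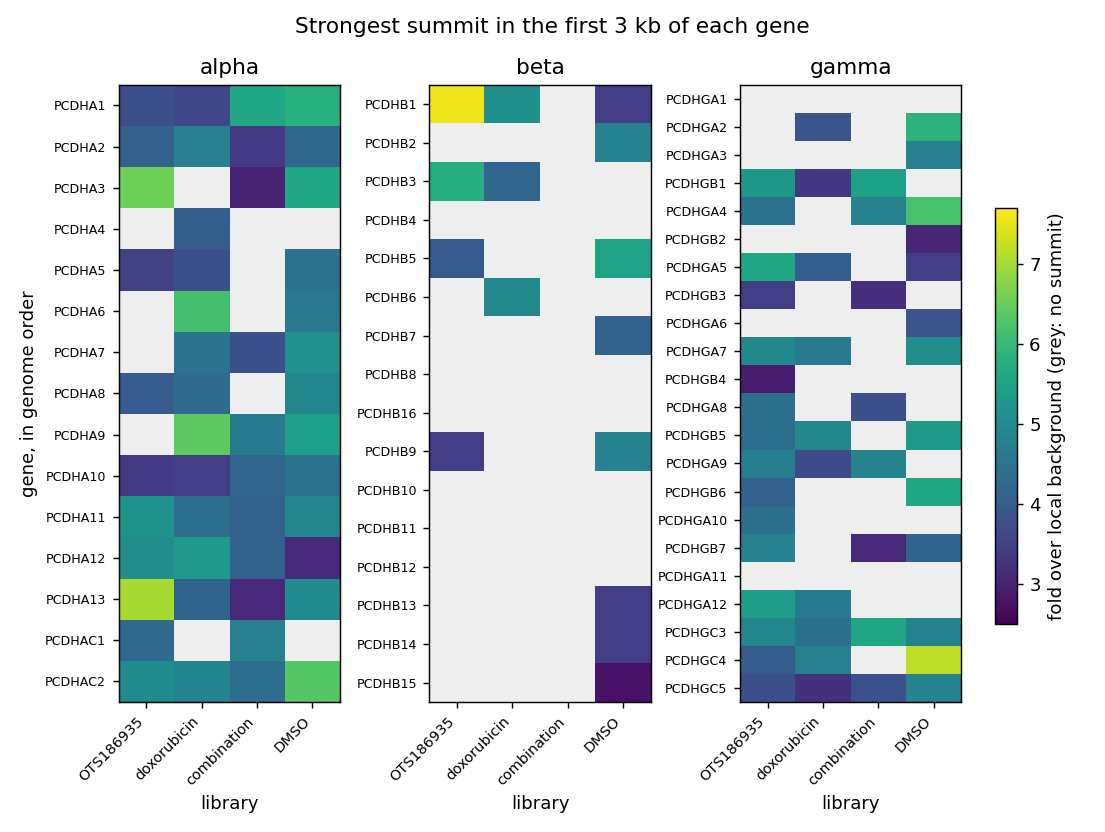
Fold over local background (colour) of the summit of highest −log10 q in the first 3 kb of each of the 53 genes (rows, in genome order) in the 4 libraries (columns); grey marks no summit. The alpha panel is filled at 11 of 15 genes with OTS186935, 13 with doxorubicin, 11 with the combination and 13 with DMSO, whereas the beta panel is filled at 4, 3, 0 and 8 of 16.

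Among the beta genes a summit in the first 3 kb was found at 4 of 16 with OTS186935 (25.0%), 3 with doxorubicin (18.8%), 0 with the combination (interval 0 to 20.6%) and 8 with DMSO (interval 24.7 to 75.3%). All genes had 22.2%, 16.3%, 11.2% and 30.6%, so the beta shares with OTS186935 and doxorubicin were near those of genes at large, and the intervals with the combination and DMSO include them. Only PCDHB1, which stands apart upstream of the rest, had one in 3 libraries: its fold was 7.57 with OTS186935, on 10 fragments and with the highest −log10 q of any beta row (7.66), 5.12 with doxorubicin and 3.44 with DMSO, where it rested on 4 fragments. PCDHB3 had a row within 1 kb of its start with OTS186935 (5.73) and doxorubicin (4.2). The 1 beta row of the combination lay beyond the 3′ end of PCDHB3, 3724 bp from its start (fold 4.48, on 6 fragments), where DMSO had a row of fold 2.67. PCDHB5 had a summit with OTS186935 (3.95) and DMSO (5.5, the beta row of highest −log10 q in that library), and PCDHB9 with OTS186935 (3.44) and DMSO (4.81). PCDHB2, PCDHB7, PCDHB13, PCDHB14 and PCDHB15 had one with DMSO alone of these libraries, with folds of 2.75 to 4.81 on 3 to 6 fragments, and PCDHB6 with doxorubicin alone (4.95). PCDHB4, PCDHB8, PCDHB16, PCDHB10, PCDHB11 and PCDHB12 had none in any library.

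The gamma genes fall into families A and B by the sequence of their variable exons. Of the 7 gamma B genes, 6 had a summit in the first 3 kb with OTS186935, 2 with doxorubicin, 3 with the combination and 4 with DMSO, every one of them between 1.5 and 2.5 kb from the start, and none had a row within 1 kb of the start. Among all genes 22.2%, 16.3%, 11.2% and 30.6% had a summit in the first 3 kb. The gamma B interval lies above that share with OTS186935 (42.1 to 99.6%) and includes it in the other libraries. For the row within 1 kb, the interval of 0 of 7 reaches 41.0% and includes the shares of all genes. PCDHGB5 had a fold of 4.38 with OTS186935, 4.88 with doxorubicin and 5.3 with DMSO, at 1647, 1689 and 1673 bp. PCDHGB7 had 4.81 with OTS186935, 3.08 with the combination and 4.17 with DMSO. PCDHGB1 was called in the treated libraries, with 5.26 (OTS186935), 3.34 (doxorubicin) and 5.44 (the combination), and had no row with DMSO. PCDHGB6 had 4.09 with OTS186935 and 5.6 with DMSO, on 8 and 15 fragments.

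Of the 12 gamma A genes, 7 had a summit in the first 3 kb with OTS186935, 5 with doxorubicin, 3 with the combination and 6 with DMSO. With OTS186935 the interval (27.7 to 84.8%) lies above the share of all genes (22.2%). In the other libraries it includes that share (16.3% with doxorubicin, 11.2% with the combination and 30.6% with DMSO). The gamma A summits lay partly at the start and partly near 2 kb. PCDHGA7 had both kinds: near the start a fold of 4.93 with OTS186935, 4.62 with doxorubicin and 4.12 with DMSO, and near 2.2 kb 4.28 with OTS186935 and 5.08 with DMSO. PCDHGA4 had a row at its start with the combination (4.81) and DMSO (6.18, on 15 fragments), and PCDHGA2 with doxorubicin (3.88) and DMSO (5.87). PCDHGA5 had one with OTS186935 (5.62) and doxorubicin (4.05), and PCDHGA12 with OTS186935 (5.39) and doxorubicin (4.64). PCDHGA9 had its row near 2 kb in the treated libraries and none in DMSO, at a fold of 4.72 (OTS186935), 3.7 (doxorubicin) and 4.84 (the combination). PCDHGA1 and PCDHGA11 had no summit in the first 3 kb in any library.

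The C-type genes had their rows at the start more often than the other members. A row within 1 kb of the start was found at 4 of 5 C-type genes with OTS186935, 4 with doxorubicin, 2 with the combination and 4 with DMSO. For PCDHA1 to PCDHA13 the same counts were 2, 2, 3 and 2 of 13, for gamma A 4, 4, 2 and 3 of 12, for gamma B 0 of 7 in each library, and for beta 2, 3, 0 and 2 of 16. Among all genes the shares were 20.9%, 15.4%, 10.8% and 30.2%. The C-type intervals were wide, 28.4 to 99.5% for 4 of 5 and 5.27 to 85.3% for 2 of 5. Those with the combination and DMSO include the share of all genes, and in each library the C-type interval overlaps that of gamma A. PCDHAC2 (region chr5:140966888-140968057) had a fold of 5.03 with OTS186935, 4.85 with doxorubicin, 4.37 with the combination and 6.33 with DMSO, the alpha row of highest −log10 q in that library (6.4), all between 608 and 1352 bp downstream of the start. PCDHGC3 (chr5:141475814-141477118) had 4.88 with OTS186935, 4.42 with doxorubicin, 5.57 with the combination and 4.78 with DMSO, between 12 and 905 bp. PCDHGC4 had 4.02 with OTS186935, 4.77 with doxorubicin and 7.19 with DMSO, where the summit lay 29 bp from the start, and no row with the combination. PCDHAC1 had 4.27 with OTS186935, 4.4 with doxorubicin and 4.93 with DMSO near its start, while the row of the combination lay 1159 bp downstream (4.76). PCDHGC5 had no row within 1 kb of its start and carried summits 2763 to 3476 bp downstream in every library, with folds of 3.77, 4.21, 3.79 and 5.88 on 11, 12, 12 and 22 fragments, and it held the highest −log10 q of the gamma cluster in DMSO (9.09).

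Promoter sequences from RefSeq (GRCh38.p14, 250 bases before to 50 after the start) were matched for 47 of the 53 members. They are printed for members with a row at the start in 3 or 4 libraries, and then for PCDHA4 and PCDHA5, the first members in genome order with no such row. Capitals mark every CGCT on either strand (AGCG on the strand shown). These are the letters of the core only, and whether a promoter holds the whole conserved element was not determined. The peaks of PCDHAC2, PCDHGA7 and PCDHB1 lie downstream of the printed stretch.
PCDHAC2 (chr5:140966226-140966525, plus strand): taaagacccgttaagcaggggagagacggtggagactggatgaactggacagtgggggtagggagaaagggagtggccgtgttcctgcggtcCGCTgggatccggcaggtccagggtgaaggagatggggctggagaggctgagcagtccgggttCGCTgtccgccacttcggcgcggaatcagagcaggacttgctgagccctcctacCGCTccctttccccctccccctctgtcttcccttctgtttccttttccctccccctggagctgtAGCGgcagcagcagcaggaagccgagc
PCDHGC3 (chr5:141475716-141476015, plus strand): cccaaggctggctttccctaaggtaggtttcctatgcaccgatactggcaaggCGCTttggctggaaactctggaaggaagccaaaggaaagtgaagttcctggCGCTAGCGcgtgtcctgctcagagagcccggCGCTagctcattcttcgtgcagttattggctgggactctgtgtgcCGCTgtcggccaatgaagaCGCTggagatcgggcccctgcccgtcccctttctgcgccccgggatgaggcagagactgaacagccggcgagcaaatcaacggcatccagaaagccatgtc
PCDHGC4 (chr5:141484780-141485079, plus strand): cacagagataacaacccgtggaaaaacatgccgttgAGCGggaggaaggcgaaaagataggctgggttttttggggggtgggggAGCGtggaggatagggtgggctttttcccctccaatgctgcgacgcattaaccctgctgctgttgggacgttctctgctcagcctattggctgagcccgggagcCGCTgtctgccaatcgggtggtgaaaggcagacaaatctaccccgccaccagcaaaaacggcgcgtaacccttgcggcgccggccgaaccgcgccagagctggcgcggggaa
PCDHAC1 (chr5:140926049-140926348, plus strand): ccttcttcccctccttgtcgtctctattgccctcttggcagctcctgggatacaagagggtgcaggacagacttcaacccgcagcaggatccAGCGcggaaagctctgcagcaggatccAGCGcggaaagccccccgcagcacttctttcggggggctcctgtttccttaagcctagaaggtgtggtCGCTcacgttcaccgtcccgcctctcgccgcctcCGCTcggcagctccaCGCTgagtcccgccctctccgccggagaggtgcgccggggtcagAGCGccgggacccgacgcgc
PCDHGA7 (chr5:141382492-141382791, plus strand): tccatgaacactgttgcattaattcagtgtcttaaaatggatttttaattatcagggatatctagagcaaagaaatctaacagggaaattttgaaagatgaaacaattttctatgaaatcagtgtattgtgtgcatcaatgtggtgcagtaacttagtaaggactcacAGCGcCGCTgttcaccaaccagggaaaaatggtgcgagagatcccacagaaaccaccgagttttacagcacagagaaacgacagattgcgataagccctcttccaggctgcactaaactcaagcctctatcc
PCDHB1 (chr5:141051124-141051423, plus strand): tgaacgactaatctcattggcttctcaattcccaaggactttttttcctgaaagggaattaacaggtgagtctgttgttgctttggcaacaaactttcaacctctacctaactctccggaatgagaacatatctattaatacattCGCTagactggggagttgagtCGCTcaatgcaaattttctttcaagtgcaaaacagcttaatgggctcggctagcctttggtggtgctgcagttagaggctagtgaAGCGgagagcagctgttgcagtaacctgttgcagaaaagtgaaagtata
PCDHA4 (chr5:140806818-140807117, plus strand): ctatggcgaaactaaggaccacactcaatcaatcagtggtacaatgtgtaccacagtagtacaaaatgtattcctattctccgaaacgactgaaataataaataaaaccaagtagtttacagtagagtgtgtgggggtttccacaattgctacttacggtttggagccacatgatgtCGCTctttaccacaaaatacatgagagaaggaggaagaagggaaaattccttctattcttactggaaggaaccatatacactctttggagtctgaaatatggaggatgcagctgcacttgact
PCDHA5 (chr5:140821363-140821662, plus strand): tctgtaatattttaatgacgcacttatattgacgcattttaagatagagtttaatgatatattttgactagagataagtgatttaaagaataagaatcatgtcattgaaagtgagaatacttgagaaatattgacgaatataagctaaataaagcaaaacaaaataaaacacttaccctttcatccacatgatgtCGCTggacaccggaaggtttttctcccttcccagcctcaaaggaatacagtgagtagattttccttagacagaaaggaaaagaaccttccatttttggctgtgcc

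The printed C-type promoters are rich in G and C, with 63.0% at PCDHAC2, 59.0% at PCDHGC3, 60.7% at PCDHGC4 and 66.0% at PCDHAC1, against 41.0% at PCDHGA7, 43.0% at PCDHB1, 40.3% at PCDHA4 and 33.7% at PCDHA5. Over the members matched, the median was 36.0% for PCDHA1 to PCDHA13 (11 genes), 40.8% for beta (14), 38.3% for gamma A (11), 48.3% for gamma B (7) and 61.8% for C-type genes (4), where all 15813 protein-coding genes with an entry had 62.7%. Members with a row at the start in any library had a median of 40.3% (18 genes), and those with none 39.7% (29 genes). CGCT on either strand was found in 46 of 47 member promoters and in 81.2% of all promoters. A match is a description of letters and neither a binding site nor a sign that the conserved element is present.

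Pseudogenes inside the clusters, which are not among the members, also carried peaks. Rows at PCDHA14, PCDHGB8P and PCDHGB9P lie within the joined alpha and gamma extents and are part of the row counts above. Those at the beta pseudogenes lie outside the beta stretches and are not. The pseudogenes were looked at after their values were seen, and no share over stretches of like size was computed, so the values are a description. Of the 6 pseudogenes, 1 had a row in 1 library, 2 in 2 and 3 in all 4, with summits 1566 to 2448 bp from their lower end (their strand is not in the table). PCDHA14, between PCDHA10 and PCDHA11, had a fold of 3.75 with OTS186935, 6.53 with doxorubicin, where it was the row of highest −log10 q in the alpha cluster (6.24), 3.93 with the combination and 4.6 with DMSO. PCDHGB9P, downstream of PCDHGA12, had 6.69 with OTS186935, 5.12 with doxorubicin, 6.4 with the combination and 6.48 with DMSO, and held the highest −log10 q of the gamma cluster in each treated library (6.59, 3.67 and 5.54). PCDHB19P had 3.94, 3.84, 4.11 and 4.3 in the same order, so a pseudogene among the beta genes was called in all 4 libraries while no beta gene was. PCDHGB8P had a row with OTS186935 (4.1) and DMSO (2.97), PCDHB17P with doxorubicin (3.6) and DMSO (4.78), and PCDHB18P with DMSO alone (3.44).

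Regions called in every library were a larger share in alpha than over the genome, which was not shown for beta or gamma. Joined where they overlapped by at least 1 bp, the rows formed 73 regions over the clusters, of which 11 (15.1%, interval 7.77 to 25.4) were called in all 4 libraries, against 7.36% of 123983 regions of the genome. The alpha cluster had 8 of 26, beta 0 of 13 and gamma 3 of 34, the last at PCDHGC3, PCDHGC5 and PCDHGB9P. The alpha interval (14.3 to 51.8%) lies above the genome's share, while those of beta (0 to 24.7%) and gamma (1.86 to 23.7%) include it. Regions called in a single library made up 9 of 26 in alpha, 9 of 13 in beta and 14 of 34 in gamma, against 58.4% of the genome's regions. Here the alpha interval (17.2 to 55.7%) lies below the genome's share, and those of beta (38.6 to 90.9%) and gamma (24.6 to 59.3%) include it.

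For OTS186935 against DMSO, 13 of 19 DMSO rows of alpha (68.4%, interval 43.4 to 87.4), 2 of 9 of beta (22.2%, 2.81 to 60.0) and 16 of 25 of gamma (64.0%, 42.5 to 82.0) were overlapped by an OTS186935 row, where 46.5% of all DMSO rows were. For doxorubicin against DMSO, 16 of 19 DMSO rows of alpha (84.2%, interval 60.4 to 96.6), 1 of 9 of beta (11.1%, 0.281 to 48.2) and 11 of 25 of gamma (44.0%, 24.4 to 65.1) were overlapped, where 37.2% of all DMSO rows were. The interval for alpha lies above that background share, and those for beta and gamma include it. For the combination against DMSO, 10 of 19 DMSO rows of alpha (52.6%, interval 28.9 to 75.6), 1 of 9 of beta (11.1%, 0.281 to 48.2) and 8 of 25 of gamma (32.0%, 14.9 to 53.5) were overlapped, where 25.3% of all DMSO rows were. Here too the alpha interval lies above the background share, and those for beta and gamma include it. With OTS186935 the intervals of all clusters include its share (46.5%). The intervals treat rows as independent, though a peak with several summits gives several rows. Read the other way, DMSO rows overlapped 12 of 15 OTS186935 rows of alpha, 2 of 5 of beta and 13 of 23 of gamma, where 55.7% of all OTS186935 rows were overlapped. DMSO rows overlapped 17 of 20 doxorubicin rows of alpha, 1 of 3 of beta and 8 of 12 of gamma, where 54.9% of all were. DMSO rows overlapped 9 of 13 combination rows of alpha, the 1 of beta and 6 of 13 of gamma, where 59.7% of all were. These comparisons share the DMSO library.

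**Figure D4:**
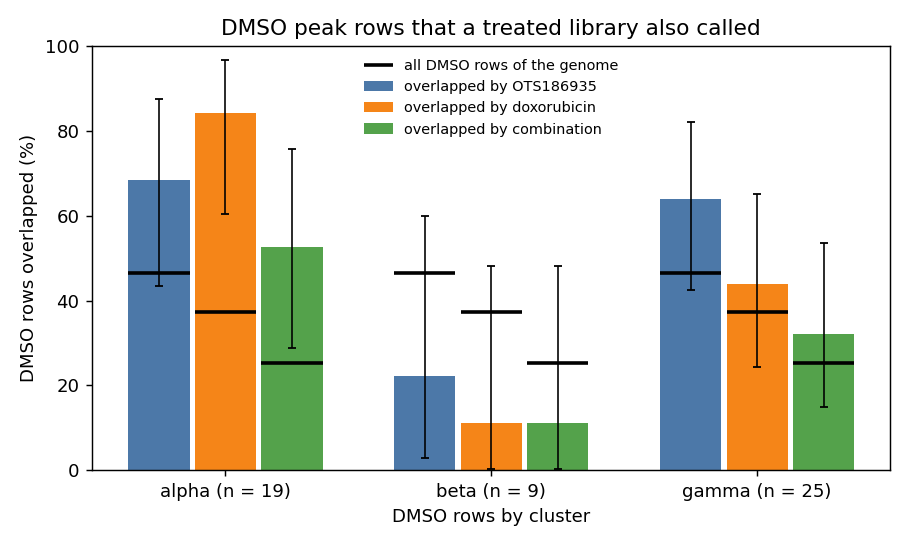
Percent of the DMSO rows of each cluster (vertical axis) overlapped by a row with OTS186935, doxorubicin or the combination; whiskers are exact binomial 95% intervals and black lines the percent over all DMSO rows of the genome. In alpha the doxorubicin bar (84.2%) and its interval lie above the line (37.2%), as do those of the combination (52.6%, line at 25.3%). In beta the bars of all treated libraries (22.2%, 11.1% and 11.1%) lie below their lines.

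The combination was also set against each drug alone. Of the doxorubicin rows, 11 of 20 in alpha, 0 of 3 in beta and 5 of 12 in gamma were overlapped by a combination row, where 28.3% of all doxorubicin rows were. Of the OTS186935 rows, 9 of 15 in alpha, 0 of 5 in beta and 9 of 23 in gamma were overlapped by a combination row, where 27.0% of all OTS186935 rows were. Of the combination rows, 10 of 13 in alpha, 0 of 1 in beta and 5 of 13 in gamma were overlapped by a doxorubicin row, where 45.1% of all combination rows were. By OTS186935 rows these counts were 8, 0 and 9, where 53.3% of all were. PCDHGB1 and PCDHGA9 were the sites called in the 3 treated libraries and not in DMSO.

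Genes related to the clusters by family or function were counted by a row within 1 kb of the start, which 20.9% of all genes had with OTS186935, 15.4% with doxorubicin, 10.8% with the combination and 30.2% with DMSO. Genes without an entry in both RefSeq tables used were not scored: 10 of 12 protocadherins outside the clusters, 10 of 19 cadherins, 18 of 20 chromatin proteins and 30 of 32 neighbours were. Protocadherins outside the clusters had it at 1 of 10 genes with OTS186935, 2 with doxorubicin, 1 with the combination and 1 with DMSO, PCDH19 being the only one called in more than 1 library (2.72 with doxorubicin and 2.71 with the combination). These counts at the start are near or below those of genes at large. A summit in the first 3 kb was found at 2, 3, 4 and 4 of the 10 in the same order. All genes had 22.2%, 16.3%, 11.2% and 30.6%. Cadherins, the calcium-dependent adhesion proteins of cell junctions, had a row within 1 kb of the start at 4, 4, 4 and 5 of the 10 scored. All genes had 20.9%, 15.4%, 10.8% and 30.2%. A summit in the first 3 kb was found at 5, 5, 4 and 5 cadherins. With so few genes in either list no difference is read from these counts. CDH7, CDH8 and CDH20 were called in all 4, CDH8 with folds of 8.0 with OTS186935, 4.38 with doxorubicin, 5.1 with the combination and 6.1 with DMSO. CDH2, the neural cadherin gene, was called with doxorubicin (4.48), the combination (4.84) and DMSO (4.63), and CDH4 with OTS186935 (3.55) and DMSO (3.96).

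Chromatin proteins known to act on such clusters or on H3K9 methylation had a row within 1 kb of the start at 3 of 18 genes with OTS186935, 3 with doxorubicin, 1 with the combination and 9 with DMSO. All genes had 20.9%, 15.4%, 10.8% and 30.2%. The counts were near or below these shares in the treated libraries and above with DMSO. With so few genes no difference is read from this. SMCHD1, a silencing protein of the inactive X and of these clusters, was called with OTS186935 (4.25), doxorubicin (3.08) and DMSO (5.01). The cohesin gene SMC3 was called with OTS186935 (4.13) and DMSO (5.34), STAG2, another cohesin gene, with doxorubicin (3.96) and DMSO (3.11), the DNA methyltransferase gene DNMT3B with the combination (2.87) and DMSO (3.77), and REST, a repressor of neuronal genes, with doxorubicin (2.88) and DMSO (3.54). Of 30 scored neighbours within 500 kb of the clusters, 5 had a row at the start with OTS186935, 3 with doxorubicin, 4 with the combination and 8 with DMSO, close to the shares of all genes. A row within 2.5 kb was found at 13, 10, 9 and 17 of them, above the 30.7%, 22.8%, 15.9% and 41.2% of all genes. A summit in the first 3 kb was found at 10, 5, 8 and 13, against 22.2%, 16.3%, 11.2% and 30.6%. No intervals were computed for these counts. Some neighbours share a start and were still counted separately. ANKHD1 and ANKHD1-EIF4EBP3 rest on the same OTS186935 row (fold 3.47), and SLC35A4 and LOC131768270 have the same extent. DND1 and SLC4A9 had a row at the start in all 4 libraries, with folds of 4.64, 4.7, 5.48 and 5.68 at DND1 and 4.52, 5.07, 3.82 and 5.22 at SLC4A9. LOC112267855 had it with doxorubicin (4.8), the combination (3.76) and DMSO (4.46), and PFDN1 with the combination (3.77) and DMSO (4.13).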

How the data were processed

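Sonicated, cross-linked chromatin was pulled down with an anti-γH2AX antibody, per the labels' protocols, and there was 1 peak list per library. Tools named, with no stated role, are MACS2 2.2.7.1, bedtools 2.30.0, Picard 2.25.3 and Bowtie2 2.4.2, with build hg38, per the submitters' processing notes. Calling options and input: not given in the sources used here. The authors deposited a score, a fold (the ratio of summit to local background), a −log10 p and a −log10 q for each summit. The lowest −log10 q was 1.0 in each list. The score was not used.

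Distinct rows that overlapped the joined gene extents plus 1 kb by at least 1 bp were counted. The gene table gives no strand, so starts were taken by strand for the 15819 protein-coding genes with an entry in the RefSeq promoter table or among the members (all 47 members with an entry lie on the plus strand, and the other 6 were taken to as well). For 5 members with several promoter entries the first was used. Summit fragments were solved from fold and p-value as MACS2 defines them, and matched the −log10 p within 0.002 in 100% of rows; on 2000 simulated rows 100% were recovered. Shares carry exact Clopper-Pearson and counts exact Poisson 95% intervals. The depth is not given.

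Members and lists were chosen with earlier results of these data known. Named are members with a row at the start in 2 or more libraries, the row of highest −log10 q per cluster and library, and regions called in 3 or 4 libraries; other members, the pseudogenes and the windows 3 kb downstream were chosen after their values were seen. Alternatives are in the closing section. Python 3.11.15, numpy 2.4.6, pandas 2.3.3, scipy 1.17.1 and matplotlib 3.10.9 were used.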

Additional observations from a re-analysis of the deposited data

Results flagged for a closer look

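With 1 library per group, these are contrasts of opposite direction, with no replicates behind them. Doxorubicin minus DMSO was 1 row in alpha, whereas the combination minus OTS186935 was -2 rows. In gamma, OTS186935 minus DMSO was -2 rows, whereas the combination minus doxorubicin was 1 row. Neither difference was tested, and steps of 1 or 2 rows lie well inside the counting intervals.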

How the results depend on the processing

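Values here are given for OTS186935, doxorubicin, the combination and DMSO in that order. With rows of −log10 q of 5 or more, row counts were 2, 3, 0 and 4 in alpha, 1, 0, 0 and 0 in beta and 4, 0, 2 and 13 in gamma, and members with a row at the start numbered 0, 0, 0 and 1 in alpha and 1, 0, 0 and 0 in beta, while in gamma they were 2 (OTS186935), 0 (doxorubicin) and 1 (the combination). With lists cut to 29561 rows, row counts were 6, 14, 13 and 10 in alpha, 2, 3, 1 and 1 in beta and 15, 8, 13 and 15 in gamma, and start counts that moved by more than 1.5 times were 2 with OTS186935 and 2 with doxorubicin in alpha and 0 with DMSO in beta. Windows of 2.5 kb either side gave 11, 14, 11 and 14 members in alpha, 4 with OTS186935 and 8 with DMSO in beta, and 17, 10, 10 and 15 in gamma. Summits in the first 3 kb, an alternative chosen after seeing the data, gave 11, 13, 11 and 13 in alpha, 4 with OTS186935 and 8 with DMSO in beta, and 16, 10, 8 and 13 in gamma. Without the flank the combination had 0 beta rows, and by summit 1 beta member had a start row with DMSO. The whole span of the beta genes, also chosen after seeing the data, gave 6 rows with doxorubicin and 3 with the combination. Merging overlapping rows moved no row or start count by more than 1.5 times, and a reciprocal overlap of 50% left 6, 0 and 2 regions called in all libraries in alpha, beta and gamma. The cause of these changes was not tested, beyond the fewer rows that the stricter limits keep. No paired analysis was possible because each group had 1 library. Summits of 3 to 22 fragments limit what a missing row can mean: whether a site without a row lacked the mark or fell short of the calling limit was not tested.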
